A study of Mus musculus with 6 samples.

Results

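The genes described here encode 10 enzymes that break down, consume or make the amino acid arginine, or handle the products of its breakdown: Arg1, Arg2, Odc1, Oat, Agmat, Otc, Ass1, Asl, Gatm and Gamt. They were chosen by symbol, and all 10 were measured, each by 1 probe set whose name carries the gene ID, among 19919 genes in all. RNA came from the corpus, the part of the stomach that makes acid and pepsinogen, dissected from wildtype Balb/c females that were 8 to 12 weeks old. The dexamethasone group (3 arrays) received this synthetic glucocorticoid in the drinking water (50 mg/l, 3 days, renewed on day 2), and the control group (3 arrays) had no treatment. The labels call the samples biological replicates without saying whether each came from 1 mouse or a pool, and p-values measure the spread between these samples. Values are log2 expression on Affymetrix arrays, as processed by the authors with RMA, which places each array on a common scale. A difference of 1 on this scale is a doubling, and each change is measured against the bulk of genes on the array.

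Arginine stands at a branch point of nitrogen metabolism. Arginase splits it into urea and ornithine: Arg1 encodes the cytosolic arginase of the liver's urea cycle, which some macrophages also make, and Arg2 encodes the mitochondrial arginase found in many tissues outside the liver. Ornithine then feeds polyamines through ornithine decarboxylase (Odc1), or glutamate and proline through ornithine aminotransferase (Oat), while ornithine transcarbamylase (Otc) turns it into citrulline. Argininosuccinate synthetase (Ass1) and argininosuccinate lyase (Asl) rebuild arginine from citrulline, and glycine amidinotransferase (Gatm) and guanidinoacetate methyltransferase (Gamt) use its amidino group to make creatine. Nitric oxide synthases compete with arginase for the same substrate.

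Of the 10 genes, Arg2 rose, Gatm fell and 8 did not pass the test (limma, Benjamini-Hochberg adjustment over the 19919 genes, threshold 0.05 on the adjusted p). Over all genes 1.84% passed in either direction, 0.798% higher and 1.04% lower. The 3 dexamethasone and 3 control values did not overlap for 3 of the 10 genes, against 18.3% of all genes. Arg2 was the 1 separated gene that was higher (8.84% of all genes), and Gatm and Asl were the 2 that were lower (9.46% of all genes). The median log2 change of the 10 was -0.0037, against 0.0023 for all genes, and the median size of the change regardless of sign was 0.11, against 0.074. The genes thus varied among themselves, from a log2 change of 1.61 for Arg2 to -0.48 for Gatm. Among all genes ordered from the largest rise, Arg2 stood at place 12.

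**Figure D1:**
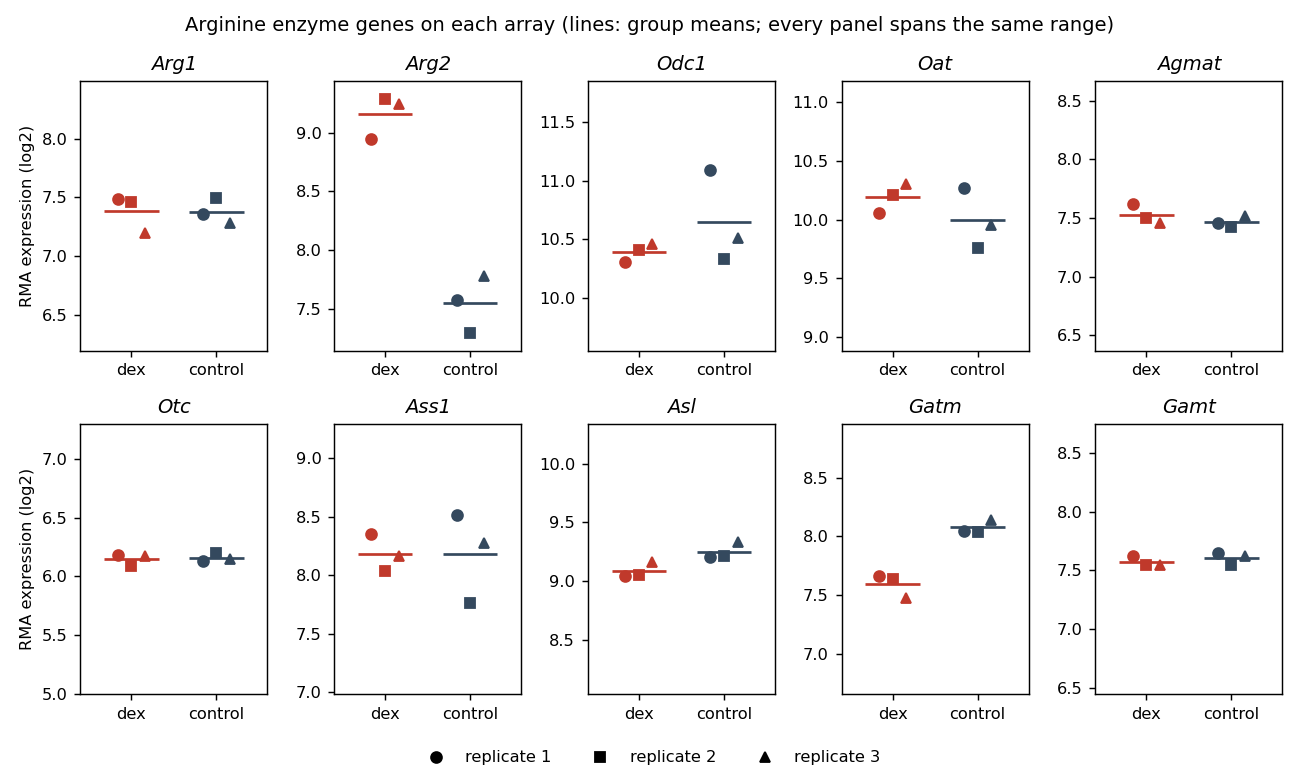
RMA expression (log2, vertical axis) of the 10 enzyme genes on each of the 6 arrays, with dexamethasone (dex, red) left of control (dark) in each panel; symbols mark replicates 1 to 3 and lines the group means. Arg2 lies between 8.95 and 9.29 under dexamethasone, above the controls at 7.30 to 7.78, and Gatm lies between 7.47 and 7.66, below the controls at 8.04 to 8.14.

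Among the arginases, Arg2 (gene ID 11847) had log2 values of 8.95, 9.29 and 9.24 in dexamethasone replicates 1, 2 and 3, against 7.57, 7.30 and 7.78 in control replicates 1, 2 and 3. Every dexamethasone array lay above every control array, with a gap of 1.18 between the closest pair. The means were 9.16 ± 0.18 under dexamethasone and 7.55 ± 0.24 in controls (SD, n = 3 each), a 3.06-fold rise (log2 change 1.61, SE 0.14, limma adjusted p = 0.00238). The 95% interval of the ratio, not adjusted for the number of genes, ran from 2.45 to 3.81. Leaving out any of the 6 arrays kept the call of Arg2, with adjusted p-values between 0.00635 and 0.0179.

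Arg1, the cytosolic arginase, did not pass the test. Its values were 7.48, 7.46 and 7.19 in dexamethasone replicates 1, 2 and 3 and 7.35, 7.49 and 7.28 in control replicates 1, 2 and 3, and the groups overlapped. The log2 change was 0.01 (SE 0.098, limma adjusted p = 0.990), with a 95% interval from -0.22 to 0.23. Arg1 was among the dimmest 40% of genes, where RMA compresses differences. The control mean of Arg2 (7.55) and the dexamethasone mean of Gatm (7.59) lay near the means of Agmat (7.52 and 7.47), also among the dimmest 40%. The fold changes of Arg2 and Gatm could be compressed as well, which was not tested. The difference Arg2 minus Arg1 within each array was 1.47, 1.82 and 2.05 in dexamethasone replicates 1, 2 and 3, against 0.22, -0.19 and 0.50 in control replicates 1, 2 and 3. These differences, whose zero point depends on the probes, moved by 1.61 between the groups without overlap (two-sided exact permutation test, p = 0.1, the smallest that 3 against 3 arrays allow). That pair and the pair Gatm and Gamt below were the 2 pairs compared, chosen after their values were seen.

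Markers of a neighbouring tissue differed between arrays of the same group. The mean over 17 markers of the squamous epithelium that lines the neighbouring forestomach was 9.87, 9.91 and 8.44 in dexamethasone replicates 1, 2 and 3, against 8.26, 9.65 and 8.42 in control replicates 1, 2 and 3. The groups overlapped, but the mean was 0.63 higher under dexamethasone, so the squamous level was not independent of treatment. Of these markers 1 rose and 16 did not pass, with 16 above and 1 below zero. Arg1 was highest in control replicate 2 and dexamethasone replicates 1 and 2, the same 3 arrays that were high for the squamous markers. Arg2 was lowest among the controls in replicate 2, but highest under dexamethasone in replicate 2. With the squamous mean of each array in the fit, the log2 change was 1.72 for Arg2 (adjusted p = 0.000847) and -0.10 for Arg1 (adjusted p = 0.592).

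Smooth muscle markers were higher under dexamethasone. The mean over 6 smooth muscle genes ranged from 12.1 to 12.5 under dexamethasone and from 11.6 to 11.8 in controls, and 2 of the 6, Actg2 and Cnn1, rose, with adjusted p-values up to 0.0699 and 0.203 when an array was left out. Of 9 macrophage markers 1 rose and 8 did not pass, with 5 above and 4 below zero; their mean ranged from 8.26 to 8.42 under dexamethasone and from 8.12 to 8.27 in controls, which overlap. The marker that rose was Cd163, a scavenger receptor of macrophages (log2 change 1.14, SE 0.085, adjusted p = 0.00147). Of those that did not pass, Mrc1 stood at 0.23, C1qb at 0.21, C1qa at 0.17 and C1qc at 0.14. Below zero were Adgre1 at -0.22 (adjusted p = 0.163), Cd68 at -0.25 (adjusted p = 0.297), Csf1r at -0.12 and Itgam at -0.07. Markers of liver, a tissue rich in Arg1, Otc and Ass1, gave 0 of 8 past the threshold (limma, 1 of 8 at an unadjusted p under 0.05), and their mean ranged from 8.14 to 8.39 under dexamethasone and from 8.17 to 8.19 in controls. The part of these cells in the values of the enzymes was not tested, and in a piece of whole tissue more cells of a type cannot be told apart from more RNA per cell. RMA values have no zero, so the absence of a cell type cannot be read from them.

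**Figure D2:**
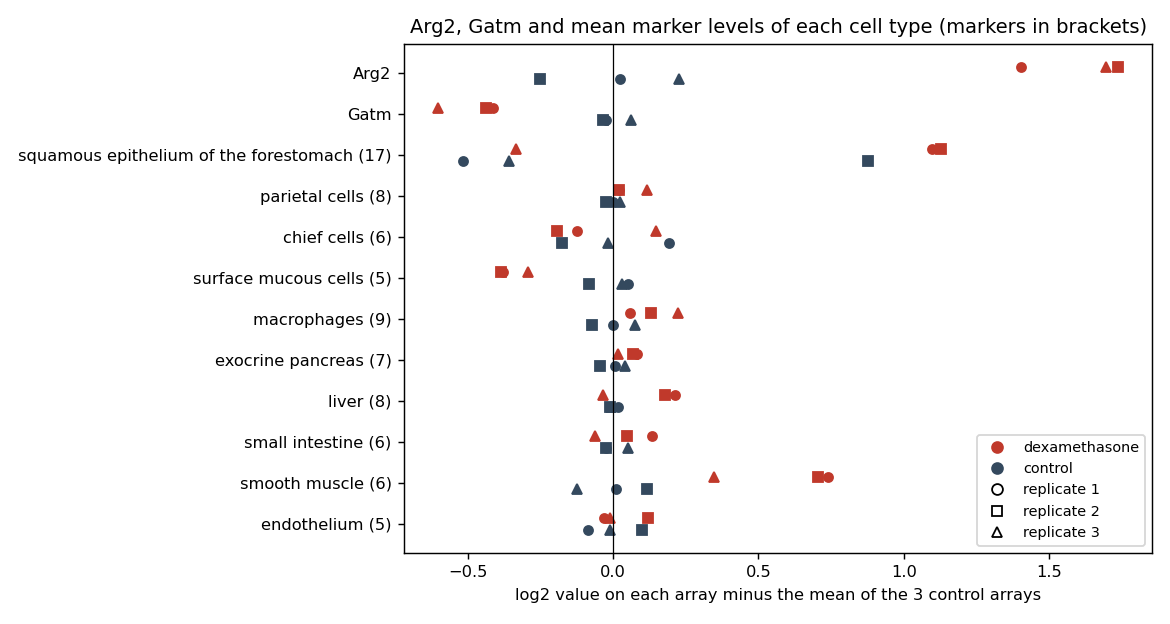
Log2 value of Arg2, of Gatm and of the mean over each marker list on each array, minus the mean of the 3 control arrays (horizontal axis; dexamethasone red, above control in dark; symbols mark replicates). Squamous markers split the arrays within both groups and overlap between them, with a mean 0.63 higher under dexamethasone. Arg2, Gatm, smooth muscle and surface mucous values split the arrays by treatment.

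The 5 genes whose values over the 6 arrays, each centred on its own mean, lay closest to those of Arg2 were F13a1, Dpep1, Cxcl13, Lox and Sult1a1. F13a1 encodes the catalytic subunit of a clotting transglutaminase, Dpep1 a membrane dipeptidase, Cxcl13 a chemokine for B cells, Lox an enzyme that crosslinks collagen and elastin, and Sult1a1 a sulfotransferase. Their root mean square differences from Arg2 ran from 0.164 for F13a1 to 0.240 for Sult1a1 on the log2 scale. All 5 rose, with log2 changes from 1.31 for Cxcl13 to 1.62 for Dpep1, which a search for profiles like that of Arg2 favours.

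The enzymes that act on ornithine, Odc1, Oat and Otc, gave no calls, and neither did Agmat, named for agmatine (limma). Of these 4 genes 0 had an unadjusted p under 0.05. Odc1, the rate-limiting enzyme of polyamine synthesis, had values of 10.3, 10.4 and 10.5 in dexamethasone replicates 1, 2 and 3 and 11.1, 10.3 and 10.5 in control replicates 1, 2 and 3. The high control mean rested on control replicate 1. The log2 change was -0.25 (SE 0.18, adjusted p = 0.626) over all arrays, -0.03 without that array and -0.41 without control replicate 2, with no call in either case. The 95% interval ran from -0.66 to 0.16.

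Oat, which moves ornithine towards glutamate and proline, had values of 10.1, 10.2 and 10.3 in dexamethasone replicates 1, 2 and 3 and 10.3, 9.76 and 9.96 in control replicates 1, 2 and 3. Control replicate 1 lay within the dexamethasone range, while control replicates 2 and 3 lay below it. The log2 change was 0.20 (SE 0.13, adjusted p = 0.597). It was 0.33 (adjusted p = 0.155) without control replicate 1 and 0.08 (adjusted p = 0.855) without control replicate 2.

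Agmat encodes an enzyme named for splitting agmatine, the product of arginine decarboxylation. Its values were 7.62, 7.50 and 7.46 in dexamethasone replicates 1, 2 and 3 and 7.46, 7.42 and 7.52 in control replicates 1, 2 and 3. Otc had 6.18, 6.09 and 6.18 in dexamethasone replicates 1, 2 and 3 and 6.13, 6.20 and 6.15 in control replicates 1, 2 and 3. Both genes were among the dimmest 40%, and the groups overlapped for both. Their log2 changes were 0.06 for Agmat (SE 0.067, adjusted p = 0.791) and -0.01 for Otc (SE 0.059, adjusted p = 0.975).

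Of the enzymes that rebuild arginine from citrulline, neither passed. Ass1, the rate-limiting step, had 8.35, 8.04 and 8.16 in dexamethasone replicates 1, 2 and 3 and 8.51, 7.77 and 8.27 in control replicates 1, 2 and 3. Its control range of values enclosed all 3 dexamethasone values. The log2 change of 0.00 had the widest 95% interval of the 10 genes, from -0.42 to 0.42 (SE 0.18, adjusted p = 0.999). As a ratio of dexamethasone to control this interval, not adjusted for the number of genes, ran from 0.748 to 1.34. It is not a limit of detection. The calls rest on the adjusted p, so changes larger than these could also be missed at this SE.

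Asl, the next enzyme, had 9.04, 9.05 and 9.16 in dexamethasone replicates 1, 2 and 3, against 9.20, 9.21 and 9.33 in control replicates 1, 2 and 3. All 3 dexamethasone values lay below all 3 control values, by a gap of 0.05 between the closest pair. The log2 change of -0.17 (SE 0.067) did not pass the test (adjusted p = 0.335). Of the 16 other settings, 1 called it, with weights estimated for each array (adjusted p = 0.0425), a setting that raised the calls over all genes to 1776.

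**Figure D3:**
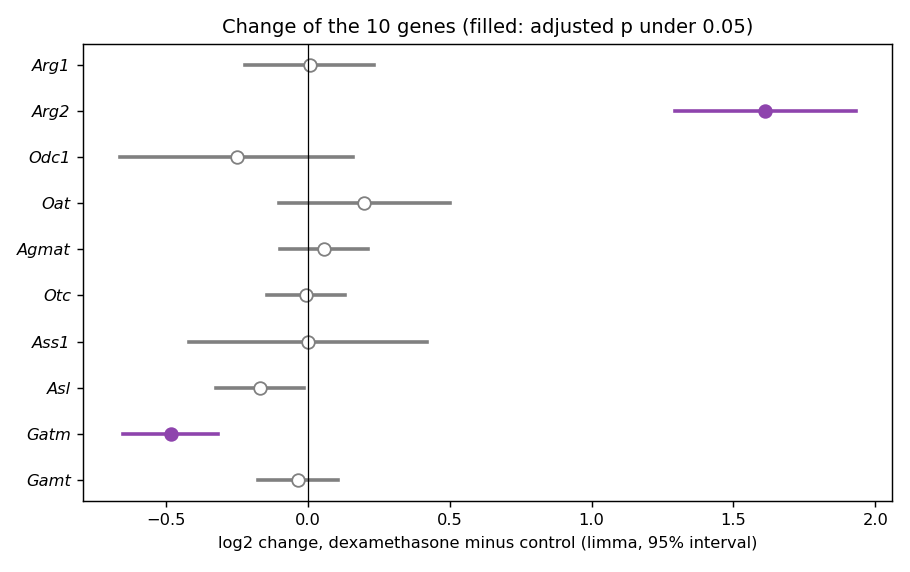
Log2 change (dexamethasone minus control, horizontal axis) of each of the 10 genes, with bars for limma's 95% interval; filled points passed the threshold of 0.05 on the adjusted p. Arg2 at 1.61 and Gatm at -0.48 are the filled points, and the intervals of Ass1 and Odc1 are the widest.

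In the creatine branch, Gatm (gene ID 67092), which transfers the amidino group of arginine to glycine and is the rate-limiting step of creatine synthesis, fell 1.40-fold. It had 7.66, 7.64 and 7.47 in dexamethasone replicates 1, 2 and 3, against 8.05, 8.04 and 8.14 in control replicates 1, 2 and 3. The groups were separated by 0.38, more than the spread within either group. The means were 7.59 ± 0.10 under dexamethasone and 8.08 ± 0.05 in controls (SD, n = 3 each; log2 change -0.48, SE 0.072, limma adjusted p = 0.0200). The call ended without control replicate 2 (adjusted p = 0.0561), control replicate 3 (0.124), dexamethasone replicate 1 (0.0641) or dexamethasone replicate 2 (0.0936), with a log2 change between -0.52 and -0.43 over all 6 arrays left out in turn.

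Gamt, which methylates the product of Gatm to creatine, had 7.62, 7.55 and 7.55 in dexamethasone replicates 1, 2 and 3 and 7.65, 7.55 and 7.63 in control replicates 1, 2 and 3. The groups overlapped, and the log2 change was -0.04 (SE 0.060, adjusted p = 0.867) with a 95% interval from -0.18 to 0.11. The difference Gatm minus Gamt within each array was 0.04, 0.09 and -0.07 in dexamethasone replicates 1, 2 and 3, against 0.40, 0.49 and 0.51 in control replicates 1, 2 and 3. It moved by -0.45 between the groups without overlap (two-sided exact permutation test, p = 0.1, again the smallest possible).

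**Figure D4:**
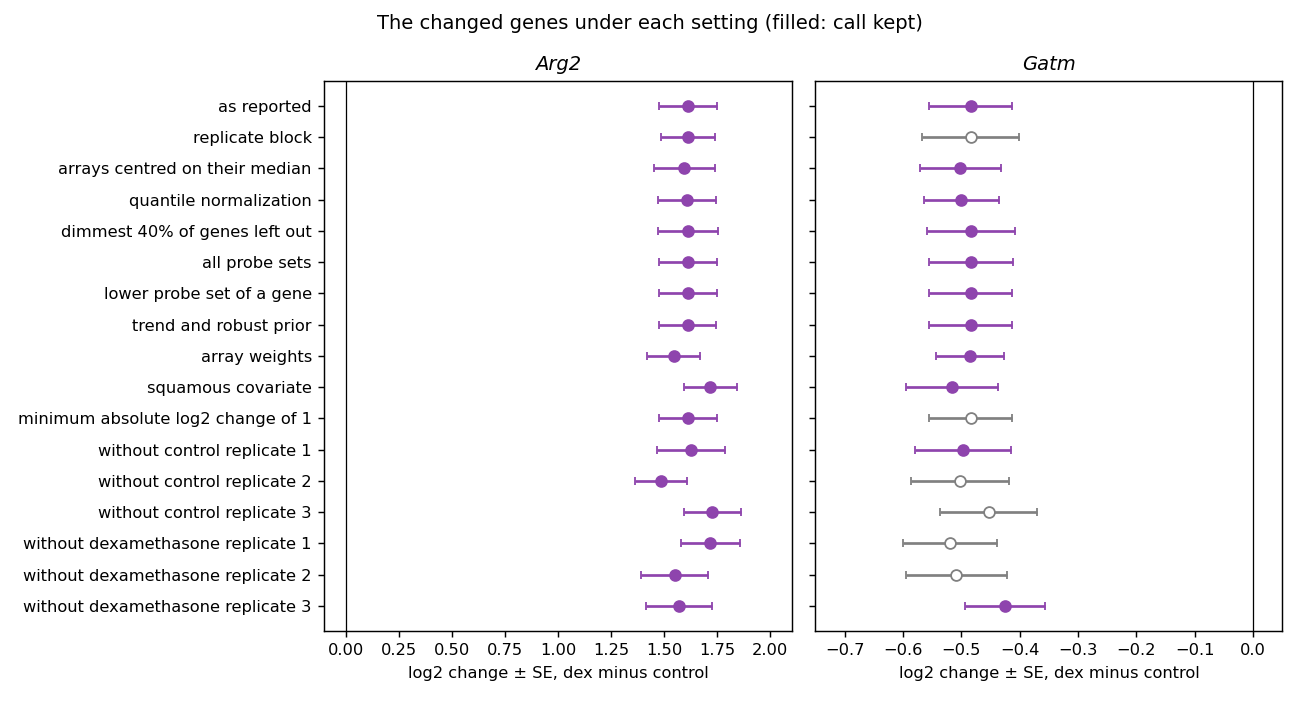
Log2 change of Arg2 and Gatm (horizontal axes, which differ in scale, with bars for the SE) as reported and under 16 other settings; filled points kept the call. Arg2 kept its call under each setting, with log2 changes from 1.49 to 1.73, and Gatm kept its sign but lost its call under 6.

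Markers of epithelial cells stood beside the fall of Gatm as follows. The mean over 5 surface mucous cell markers ranged from 11.9 to 12.0 under dexamethasone and from 12.2 to 12.3 in controls; 2 of them, Capn8 and Capn9, fell and 3 did not pass, and the adjusted p of Capn8 was up to 0.122 with an array left out. Gkn1 and Gkn2, which encode abundant secreted proteins of these cells, had log2 changes of -0.01 and 0.01, whose sign turned under other settings. Muc5ac, which did not pass either, had a log2 change of -0.29 (adjusted p = 0.190). All 3 of its dexamethasone values lay below all 3 control values. Of 8 parietal cell markers and 6 chief cell markers 0 passed (limma, 1 of 8 and 1 of 6 at an unadjusted p under 0.05), and of 7 markers of exocrine pancreas, a tissue with high Gatm, 0 passed (1 at an unadjusted p under 0.05; mean 7.44 to 7.51 under dexamethasone and 7.38 to 7.47 in controls). The part of these cells in the fall of Gatm was not tested.

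The 5 genes with values closest to those of Gatm were Ero1a, Itpk1, Neurl3, Lipg and Smoc1, with root mean square differences from 0.0355 for Ero1a to 0.0533 for Smoc1 on the log2 scale. Ero1a encodes an oxidase of the endoplasmic reticulum, Itpk1 an inositol phosphate kinase, Lipg endothelial lipase and Smoc1 a secreted matrix protein. Their log2 changes ran from -0.50 for Smoc1 to -0.42 for Itpk1, which a search for profiles like that of Gatm favours. By the test 4 of them fell, Itpk1 just missing the threshold (adjusted p = 0.0507). The calls of these 4 ended without most arrays (adjusted p up to 0.165).

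Because Gatm changed, the bases before its start are shown here from RefSeq (build GRCm38.p6, chr2:122611278-122611527, minus strand, written 5′ to 3′ and ending at the base before the annotated start). Capitals mark the matches to CCAAT on either strand.
Gatm: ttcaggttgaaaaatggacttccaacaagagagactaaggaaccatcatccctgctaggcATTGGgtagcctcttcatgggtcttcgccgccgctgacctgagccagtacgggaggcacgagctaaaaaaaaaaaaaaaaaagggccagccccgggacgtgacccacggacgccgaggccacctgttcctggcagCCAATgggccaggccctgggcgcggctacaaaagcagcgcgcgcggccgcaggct
The matches begin at positions -190, on the opposite strand, and -55, counting back from the start. Such a window was held for 7 of the 10 genes in 8 windows, Agmat having 2; Arg1, Arg2 and Asl had none. Each window of 250 bases was searched on both strands for GNACA and TGTNC spaced by 3 bases (a glucocorticoid response element with both half-sites), AGAACA (a half-site, which can overlap the full element), CCAAT and CACGTG (an E-box). None of the 8 windows held either glucocorticoid motif, against 0.387% and 16.1% of the 32851 windows of all genes. CCAAT was found for Gatm and Oat (33.8% of all windows) and CACGTG for Ass1 (6.02% of all windows). These letters describe the reference sequence of another strain than Balb/c.

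The other genes of the pathway, in 6 lists of 41 measured genes, gave 0 calls (limma), with 8 at an unadjusted p under 0.05, 7 higher and 1 lower, against 13.1% of all genes at that level. Groups did not overlap in 9 of the 41, 7 higher and 2 lower, against 18.3% of all genes (8.84% higher, 9.46% lower). Of the 41 genes, 15 were among the dimmest 40% of all genes, where RMA compresses differences. The median log2 change of the 41 was 0.05, with 28 above and 13 below zero, against 10136 above and 9783 below among all genes. Array weights gave 5 calls among these genes (Slc3a2, Prodh, Ckm and Ckmt2 higher, Sms lower), a setting that called 8.92% of all genes. Leaving out dexamethasone replicate 3 gave 2, Ckm higher and Sms lower, against 2.73% of all genes called.

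In the transport list 2 of 11 genes had an unadjusted p under 0.05. Slc3a2, the heavy chain shared by several amino acid exchangers, averaged 12.0 ± 0.10 under dexamethasone and 11.7 ± 0.19 in controls (SD, n = 3 each; log2 change 0.28, limma adjusted p = 0.315). Slc7a7, its partner in exporting arginine from cells, had a log2 change of 0.16 (adjusted p = 0.334). Slc7a2, a cationic amino acid importer, had -0.18 (adjusted p = 0.425).

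In the list on carbamoyl phosphate, aspartate and urea, 0 of 6 genes had an unadjusted p under 0.05 (limma). The urea transporter gene Slc14a2 had a log2 change of 0.12 (adjusted p = 0.484), and Slc25a13, the mitochondrial aspartate and glutamate carrier, had -0.07 (adjusted p = 0.813). Cps1, the carbamoyl phosphate synthetase of the urea cycle, had 0.04 (adjusted p = 0.826). Among 6 genes of nitric oxide synthesis 1 had an unadjusted p under 0.05, Ddah1, which clears methylated arginines that inhibit nitric oxide synthases (log2 change 0.16, adjusted p = 0.373). Gch1, which starts the synthesis of their cofactor tetrahydrobiopterin, had -0.16 (adjusted p = 0.438), and Nos3, the endothelial synthase, had 0.10 (adjusted p = 0.570).

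Among 9 measured polyamine genes 3 had an unadjusted p under 0.05. Sms, spermine synthase, had values of 10.4, 10.2 and 11.2 in dexamethasone replicates 1, 2 and 3, against 11.5, 11.2 and 11.2 in control replicates 1, 2 and 3. Dexamethasone replicate 3 lay next to the controls, and the other dexamethasone arrays lay well below them. The log2 change was -0.73 (SE 0.23, limma adjusted p = 0.221) over all arrays and -1.03 (adjusted p = 0.00660) without dexamethasone replicate 3, the replicate that was also low for the squamous markers. With the squamous mean in the fit the log2 change of Sms was -0.48 (limma adjusted p = 0.186). Control replicate 2, high for these markers, had nearly the same Sms value as control replicate 3, which was low for them. The part of squamous tissue in the values of Sms was not tested. Sat1, which acetylates spermidine and spermine for export, and Oaz2, an inhibitor of ornithine decarboxylase, had 0.18 and 0.14 (adjusted p = 0.369 and 0.380).

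Of 4 measured genes that link ornithine to proline and glutamate, 1 had an unadjusted p under 0.05 (limma). It was Prodh, proline dehydrogenase, with a log2 change of 0.22 (adjusted p = 0.212). All 3 dexamethasone values of Prodh lay above all 3 control values, by a gap of 0.08 between the closest pair. Aldh18a1, which makes the precursor of proline and ornithine from glutamate, had 0.15 (adjusted p = 0.739), and Pycrl, a reductase that makes proline, had -0.02 (adjusted p = 0.957). In the list on creatine use 1 of 5 genes had an unadjusted p under 0.05 (limma), Ckm, the creatine kinase of skeletal muscle. Ckm had 9.07, 9.63 and 8.28 in dexamethasone replicates 1, 2 and 3, against 8.17, 8.29 and 8.30 in control replicates 1, 2 and 3. Dexamethasone replicate 3 lay among the controls, so the groups overlapped. The log2 change was 0.74 (SE 0.29, adjusted p = 0.330), 1.10 (adjusted p = 0.0188) without that array and 0.42 (adjusted p = 0.695) without dexamethasone replicate 2. With the squamous mean in the fit the log2 change of Ckm was 0.47 (limma adjusted p = 0.404). Control replicate 2, high for the squamous markers, had nearly the same Ckm value as control replicate 3, which was low for them. The part of squamous tissue in the values of Ckm was not tested. Ckmt2, a mitochondrial creatine kinase of muscle, had 0.33 (adjusted p = 0.385), and Slc6a8, the creatine transporter, had 0.15 (adjusted p = 0.586).

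**Figure D5:**
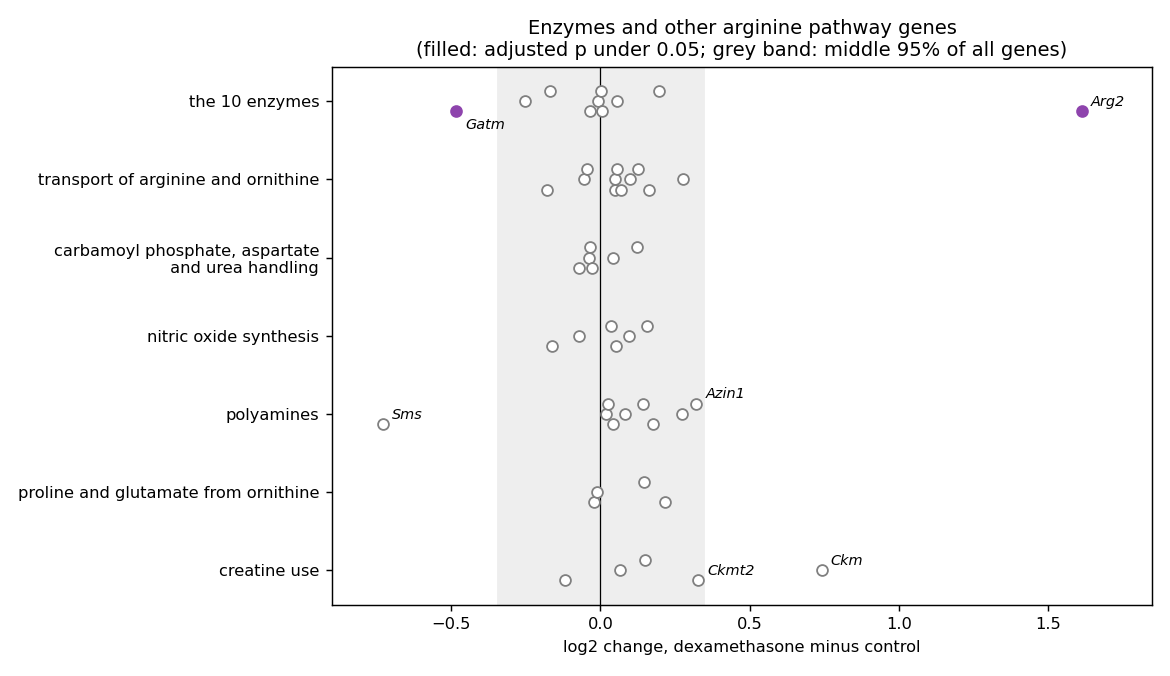
Log2 change (dexamethasone minus control, horizontal axis) of the 10 enzyme genes in the top row and of the 41 other arginine pathway genes by list; each point is a gene, filled points passed the threshold, and the grey band holds the middle 95% of all genes, from -0.34 to 0.35. Arg2 and Gatm are the filled points, and Sms at -0.73 and Ckm at 0.74 lie outside the band without passing.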

How the data were processed

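The authors' deposited table holds log2 expression values per probe set and array. RMA, limma and R 2.9 are named, with no roles, per the submitters' processing notes. Neither the chip definition used nor a filter is given in the sources used here. RMA normally includes quantile normalization, so shifts common to whole arrays would have been removed before deposit. Array medians lay between 7.94 and 7.98. Of 20985 probe sets, 19921 had 1 symbol, 0 had several and 1064 were unlisted. For 2 symbols with 2 probe sets the brighter was taken, leaving 19919 genes. The labels name no batch.

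The comparison used R 4.3.3 with limma 3.58.1 (lmFit, then eBayes, two-sided, no filter, Benjamini-Hochberg over all genes, threshold 0.05). Every adjusted p is limma's, and intervals and SEs are its moderated ones. Exact permutation tests used scipy 1.17.1. With 3 arrays per group, array number sets the precision.

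The members and lists were chosen with earlier results of these data known. Named genes are the 10 enzymes, per pathway list those past the threshold and the 3 of smallest p, and the 5 genes of closest profile to each changed enzyme, leaving out predicted genes. Other genes were named after their values were seen. Some listed genes are not reported here. In simulated data of 19919 genes for this comparison, 82% of 50 genes with a true log2 change of 0.5 were found, as were 98% of 50 at 1, with 8 unchanged genes called. The simulated noise was normal, independent between genes and arrays, and had limma's moderated SD of each gene. Differences that many genes of an array share, such as those of the squamous markers, were left out, so these shares need not hold for the real arrays.

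The alternatives were the replicate block, median centring, quantile normalization, the dimmest 40% of genes left out, all probe sets, the dimmer probe set of a gene, a trend and robust prior, array weights, the squamous covariate, leaving out each array, and a minimum log2 change of 1.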

Additional observations from a re-analysis of the deposited data

How the results depend on the processing

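Of 742 values of the 47 genes run under the alternatives, 650 kept their sign and their side of the threshold. Arg2 kept its call in all 16 alternatives (adjusted p up to 0.0179). Some settings could hardly alter a result. Each enzyme has 1 probe set, so the settings on probe sets left its log2 change as it was. A minimum change of 1 could not remove the change of 1.61 of Arg2, nor add a call to any gene. Gatm kept its log2 change of -0.48 but lost its call with the replicate block (adjusted p = 0.0757) and under a minimum change of 1, and its change ranged from -0.52 to -0.43 with each array left out in turn. The count of called members was 1 with the block or the minimum change (0 lower in both cases), 3 with array weights (2 lower, Asl being added at -0.23) and 1 to 2 with each array left out (0 to 1 lower). Changes near zero turned sign. For Arg1 they were -0.011 with median centring, -0.014 with quantile normalization, -0.10 with the squamous covariate and -0.046 to 0.10 with each array left out. For Ass1 they were -0.016 with median centring, -0.072 with array weights and -0.21 to 0.16 with each array left out, and for Otc -0.025 to 0.021. Gkn1 stood at 0.055 with array weights, 0.030 with the squamous covariate and -0.066 to 0.099 with each array left out, and Gkn2 at -0.0093 with median centring, -0.029 with quantile normalization and -0.079 to 0.14 with each array left out. Slc25a13 stood at 0.022 and Pycrl at 0.041 with the squamous covariate. With each array left out Pycrl ranged from -0.077 to 0.072 and Aldh18a1 from -0.033 to 0.24. Cxcl13 lost its call without control replicates 2 or 3 or dexamethasone replicate 2, and Ero1a, Neurl3, Lipg and Smoc1 lost theirs with the block and without most arrays (adjusted p up to 0.165). Quantile normalization also ended the calls of Ero1a (adjusted p = 0.0549) and Cnn1 (adjusted p = 0.0521). Pathway genes past the threshold numbered 5 with array weights (4 higher, 1 lower) and 0 to 2 with each array left out (0 to 1 higher, 0 to 1 lower). Over all genes, the 367 calls (159 higher, 208 lower) were 220 with the block (104 and 116), 1776 with array weights (773 and 1003), 48 with a minimum change of 1 (26 and 22) and 88 to 543 with each array left out (39 to 284 higher, 48 to 297 lower). The causes were not tested, except that the minimum change removes smaller changes by construction. The labels name no pairing of the replicate numbers. Deviations of same-numbered arrays from their group means correlated across genes at -0.28, 0.35 and 0.23 for numbers 1, 2 and 3. Those of differently numbered arrays ranged from -0.49 to 0.38. Deviations sum to zero within each group, so these values do not decide whether the samples were paired. Arg1, Agmat and Otc had no value with the filter on the dimmest 40%. The same held for Slc7a7, Cps1, Slc14a2, Gch1, Ckmt2, Lipg and Adgre1.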
